A study of Mus musculus with 2 samples.

Results

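The transcripts described here are 9 genes used as markers of B cells and plasma cells: Cd79a, Cd79b, Ms4a1, Blk, Cr2, Jchain, Pax5, Cd22 and Blnk. Every probe set whose single gene symbol in the array annotation is one of these genes was taken, which gave 12 probe sets for 9 genes, out of 34945 probe sets for 18193 genes on the array. The arrays carry washed platelets of 2 genotypes on a C57BL/6 background. In the Smad4 -/- animals, both Smad4 alleles flanked by loxP sites met a Cre recombinase driven by the PF4 promoter, which is active in megakaryocytes and platelets. The Smad4 f/f animals carry the same loxP-flanked gene, and the labels also call them wild-type controls. Each genotype has 6 mice and 1 array, and neither the age and sex of the mice nor any pooling of their RNA is stated in the labels. With 1 array per genotype there is no spread between animals and no test was possible, so each comparison sets a single array against another.

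B cells recognise antigen through a membrane immunoglobulin that has almost no cytoplasmic tail, so its signal is carried by the partner proteins Ig-alpha and Ig-beta. Their tyrosine motifs are phosphorylated by Src family kinases and recruit Syk, and an adaptor then brings phospholipase C gamma to the complex. Platelets use the same chain of Syk, adaptor and phospholipase below their collagen receptor, but are not known for an immunoglobulin receptor of their own. Plasma cells, the antibody-secreting end of the lineage, lose much of this surface machinery and assemble immunoglobulin with the joining chain. Because the PF4 promoter drives the deletion in the megakaryocyte lineage, B cells were not the intended target of the Cre recombinase.

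Signals are MAS5 values, 1 per probe set and array, scaled by the authors to the same trimmed mean. A probe set was called measured where its signal on either array reached a floor of 145 on the linear scale (log2 7.18), and lower signals were raised to that floor before a ratio was taken. Of the 12 marker probe sets, 9 were measured (75%), against 51.8% of all probe sets with 1 symbol. The measured ones represent 8 of the 9 genes, and Pax5 is the gene without one. The platelet label held in these data: all 12 annotated platelet and megakaryocyte markers were measured, and Pf4 read 167889 in Smad4 -/- and 162822 in Smad4 f/f. Smad4 itself read 894 in Smad4 -/- and 949 in Smad4 f/f by its strongest probe set, and its other probe sets gave log2 ratios of -0.13 and -0.12. Smad4 was planned as a check of the genotype, and none of its probe sets was 2-fold lower in Smad4 -/-. Where these probe sets lie relative to the deleted part was not analysed here, so they check nothing about the deletion. The Gapdh control, which compares 3' with 5' signal and so tracks RNA integrity, gave a ratio of 2.61 in Smad4 -/- and 1.86 in Smad4 f/f. For beta-actin that ratio was 1.27 in Smad4 -/- and 1.16 in Smad4 f/f. Whether RNA quality had a part in any ratio below was not tested.

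Promoter sequence from RefSeq (GRCm38.p6) was at hand for 6 of the 9 genes, as the 250 bases before a transcript start. For Cr2 and Cd22 that start lies inside the annotated span of the gene, which holds 161 and all 250 of the bases, so their windows were left out. Of the other 4, Jchain is shown as the marker with the largest ratio and Blnk because it holds an octamer. Both windows end at the annotated start of the gene and are read 5′ to 3′ on its strand, the minus strand, with Jchain at chr5:88527898-88528147 and Blnk at chr19:40994222-40994471. The search was for a SMAD box (CAGAC, or its reverse complement GTCTG) and for an octamer (ATGCAAAT, or its reverse complement ATTTGCAT), the element through which Oct factors act at many B cell promoters, and capitals mark a match.
Jchain: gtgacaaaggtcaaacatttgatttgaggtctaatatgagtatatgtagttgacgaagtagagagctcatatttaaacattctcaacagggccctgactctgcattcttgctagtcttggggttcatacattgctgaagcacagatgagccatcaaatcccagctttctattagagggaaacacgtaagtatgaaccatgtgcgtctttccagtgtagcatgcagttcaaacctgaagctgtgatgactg
Blnk: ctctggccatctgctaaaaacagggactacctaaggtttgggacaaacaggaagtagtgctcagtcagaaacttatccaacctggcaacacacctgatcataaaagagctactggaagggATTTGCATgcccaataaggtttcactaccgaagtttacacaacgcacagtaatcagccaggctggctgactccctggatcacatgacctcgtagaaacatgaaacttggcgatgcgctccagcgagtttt

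The SMAD box is short and stands in 42.2% of 32851 mouse promoter windows of this length, searched on both strands. Among the 4 marker promoters it was found in 1, that of Pax5. The octamer is rarer, in 1.60% of all windows, and in 1 of the 4 marker promoters, that of Blnk, where the match begins 130 bases before the start. The 2 motifs do not overlap in these windows. The Jchain window held neither set of letters, which says only that they are not within these 250 bases. A match is a run of letters and was not tested as a binding site.

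The receptor subunits come first. Cd79a, which encodes Ig-alpha, read 314 in Smad4 -/- and 183 in Smad4 f/f, a log2 ratio of 0.78, short of 2-fold. Its partner Cd79b, which encodes Ig-beta, read 1120.3 in Smad4 -/- and 969.7 in Smad4 f/f, a log2 ratio of 0.21. Both subunits were higher on the Smad4 -/- array, by unequal amounts, although the proteins are inserted into the receptor as a pair. Disagreement between probe sets of the same gene gives a technical measure of spread for such ratios. Pooled over 4252 genes with more than 1 measured probe set, that SD was 0.48 on the log2 scale, so Cd79b lies inside that spread and Cd79a at 1.63 times it. This measure holds no spread between animals.

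Next are the proteins that carry or restrain the receptor's signal. Blnk, the adaptor that links Syk to phospholipase C gamma, read 1426 in Smad4 -/- and 1333 in Smad4 f/f, a log2 ratio of 0.10. Blk, a Src family kinase best known in B cells, read 290.3 in Smad4 -/- and 520.4 in Smad4 f/f, a log2 ratio of -0.84. That was the lowest ratio among the 9 measured marker probe sets, 1.79-fold lower in Smad4 -/- and short of 2-fold. Cd22, a sialic acid-binding receptor that dampens B cell receptor signals, has 2 probe sets. The stronger read 716 in Smad4 -/- and 529 in Smad4 f/f, a log2 ratio of 0.44. The weaker read 15.4 in Smad4 -/- and 80.3 in Smad4 f/f, below the floor on both arrays, and points the other way as deposited. Below the floor the order of 2 signals has no meaning, so Cd22 rests on its stronger probe set.

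Of the coreceptors and other surface proteins, Cr2 was past 2-fold. Cr2 encodes complement receptor 2, which binds C3 fragments on B cells and on follicular dendritic cells. It read 348 in Smad4 -/- and 149 in Smad4 f/f, 2.33-fold higher in Smad4 -/-. The Smad4 f/f signal lay only just above the floor of 145. With the floor at the 75th percentile the log2 ratio was 0.42 in place of 1.22, short of 2-fold. Cr2 has 1 probe set, so no second measurement on these arrays bears on it. Ms4a1, which encodes the surface protein CD20, read 1848 in Smad4 -/- and 1867 in Smad4 f/f by its stronger probe set. Its weaker probe set read 497 in Smad4 -/- and 461 in Smad4 f/f. The log2 ratios of -0.01 and 0.11 make Ms4a1, by its stronger probe set, the marker with the smallest difference between the arrays. It is also the only one for which 2 measured probe sets can be compared.

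**Figure D1:**
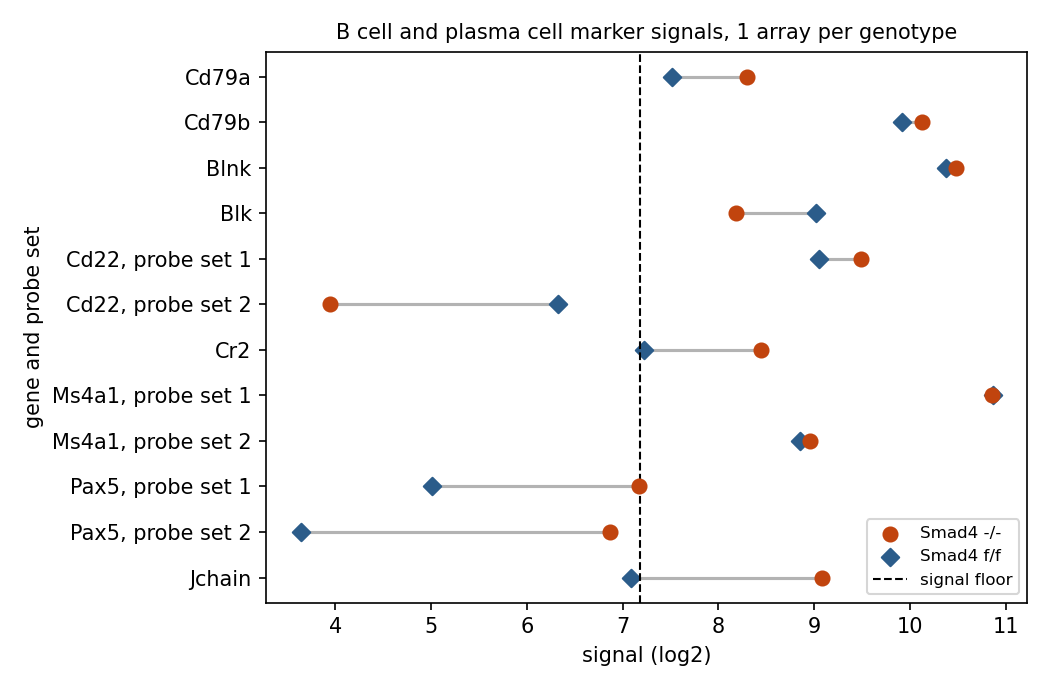
Log2 signal of the 12 marker probe sets (rows, grouped by role) on the Smad4 -/- array (circles) and the Smad4 f/f array (diamonds), with the signal floor as a dashed line; each point is 1 array. Jchain and Cr2 have the widest gaps among measured probe sets, Blk is the only one clearly lower in Smad4 -/-, and both Pax5 probe sets and the weaker Cd22 probe set lie below the floor on both arrays.

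Pax5, the transcription factor that commits cells to the B lineage, was not measured. Its probe sets read 144 and 117 in Smad4 -/-, against 32.3 and 12.5 in Smad4 f/f. All of these signals are below the floor of 145 (the first only just), and no ratio is given for them here. With no floor both would pass 2-fold, as would 17.3% of all probe sets with 1 symbol in that direction.

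Jchain, the joining chain that links IgM pentamers and IgA dimers and is made in quantity by plasma cells, had the largest ratio of the markers. It read 542 in Smad4 -/- and 136 in Smad4 f/f. The Smad4 f/f signal is below the floor, so the ratio is a bound: Jchain was at least 3.73-fold higher in Smad4 -/-, a log2 ratio of at least 1.90. It too rests on 1 probe set.

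Set together, 2 of the 9 measured marker probe sets passed 2-fold on the higher side in Smad4 -/- and 0 on the lower side. Over all 18099 measured probe sets with 1 symbol, 3.35% were at least 2-fold higher and 3.5% at least 2-fold lower. The median log2 ratio of the 9 was 0.21, with 7 above 0 and 2 below, against a median of -0.02 over all measured probe sets, of which 48.2% were above 0. Of the 9, 5 lay within 0.48 of 0, against 66.3% of all. These shares describe 2 arrays and a few probe sets, and nothing particular to the markers is read from them.

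The widest ratios were not at the highest signals. The 3 marker probe sets with a mean log2 signal of 10 or more, those of Cd79b, Blnk and the stronger one of Ms4a1, had log2 ratios from -0.01 to 0.21. Jchain, Cr2, Blk and Cd79a, with the 4 widest ratios, have means below 9, but so does the weaker Ms4a1 probe set, whose ratio was 0.11. Across the array, the SD of the log2 ratio was 0.54 at mean signals below 8, 0.64 at 8 to 9, 0.55 at 9 to 10 and 0.46 at 10 or more. At 8 to 9, where Jchain lies, 4.45% of probe sets were at least 2-fold higher, and below 8, where Cr2 lies, 3.22% were. These means were taken after signals were raised to the floor. That limits the ratios near the floor, so the SD and share below 8 are held down by it. A probe set with 1 array at the floor and a mean of 8 or more, as for Jchain, must lie past 2-fold. The share at 8 to 9 therefore does not weigh the Jchain ratio.

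**Figure D2:**
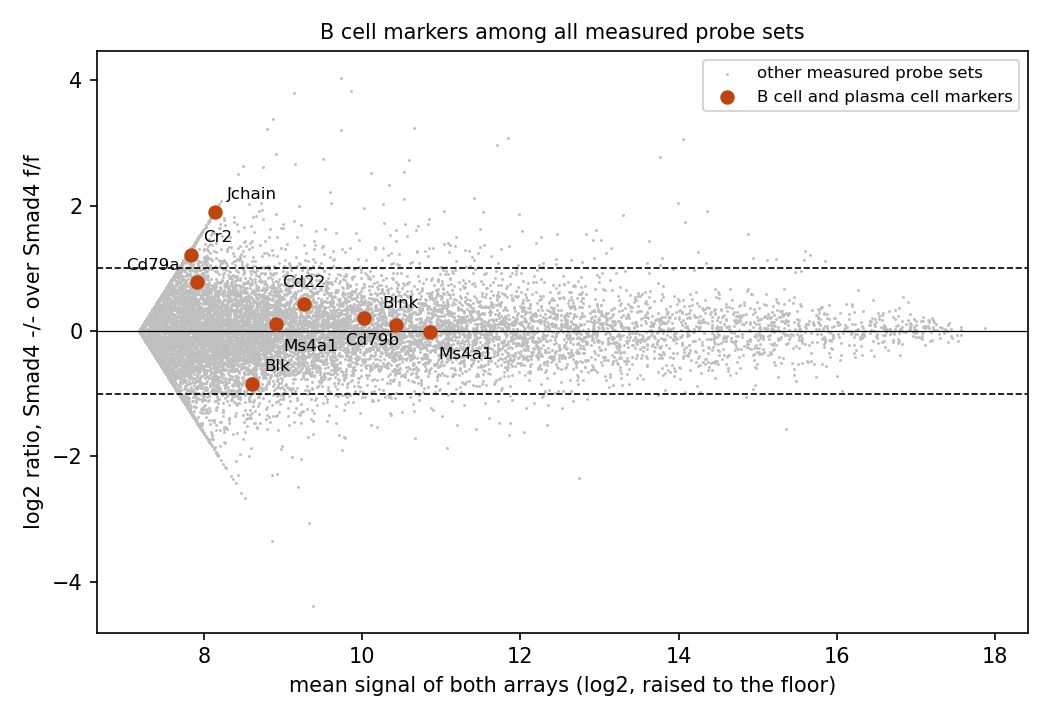
Log2 ratio of Smad4 -/- over Smad4 f/f (vertical) against the mean log2 signal of both arrays after raising to the floor (horizontal), for 18099 measured probe sets in grey and the 9 measured marker probe sets in red; dashed lines mark 2-fold. Jchain and Cr2 lie above the upper line at low signal, Blk lies between 0 and the lower line, and the markers of higher signal lie near 0.

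Genes that work beside the markers were read as lists, with 1 value a gene from its strongest probe set. Probe sets ending _x_at were used only where there was no other. The background over 11089 measured genes was 3.42% past 2-fold on the higher side in Smad4 -/- and 3.58% on the lower side, with a median log2 ratio of -0.02. The markers themselves had a median of 0.32 over their 8 measured genes, higher than over probe sets because Ms4a1 then counts once. In bulk RNA of this kind, a difference in the number of cells of a type and in RNA per cell cannot be told apart.

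Other B cell surface and cytoplasmic markers were spread to both sides of 0. Of 21 measured genes, 8 had a ratio above 0 and 13 below, 0 were at least 2-fold higher, 1 was at least 2-fold lower, and the median was -0.07. The one past 2-fold was Dntt, the terminal transferase of lymphocyte precursors. It read 28.3 in Smad4 -/- and 298 in Smad4 f/f, at least 2.05-fold lower in Smad4 -/-. The summed signal of the 25 annotated genes of this list was 19620 in Smad4 -/- and 20065 in Smad4 f/f. Cd24a, a surface protein also found on other blood cells, is the strongest of them, and without it the sums were 12365 in Smad4 -/- and 14740 in Smad4 f/f, a ratio of 0.84. For the 9 markers the sums were 6749 in Smad4 -/- and 5719 in Smad4 f/f, a ratio of 1.18, and 1.27 without Ms4a1, the strongest.

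None of the 12 measured B cell transcription factors passed 2-fold, with 9 above 0, 3 below and a median of 0.28. Mef2c, which is also a megakaryocyte factor, read 6754 in Smad4 -/- and 5751 in Smad4 f/f. Pou2af1, the coactivator that joins Oct factors at the octamer, read 1706 in Smad4 -/- and 1874 in Smad4 f/f, a log2 ratio of -0.14. Ebf1, which acts with Pax5 at the head of the B lineage programme, read 585 in Smad4 -/- and 415 in Smad4 f/f, a log2 ratio of 0.50. Mef2c, Pou2af1 and Ebf1 were above the floor on both arrays, whereas Pax5 itself stayed below the floor, as did Spi1 of this list.

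Genes of B cell receptor signalling, most of which platelets also use, leaned the other way. Of 22 measured, 6 were above 0 and 16 below, with a median of -0.18. The only one past 2-fold by its strongest probe set was Syk, the kinase recruited by Ig-alpha and Ig-beta. That probe set read 2586 in Smad4 -/- and 5571 in Smad4 f/f, but the 4 measured for Syk spanned log2 ratios of -1.11 to 1.04. Weaker probe sets of other genes passed 2-fold too. The 5 measured for Nfatc1 spanned -2.07 to 0.19, and the 3 for Pik3cd spanned -0.68 to 1.75. Btk, the kinase that activates phospholipase C gamma beside Blnk, read 2710 in Smad4 -/- and 1555 in Smad4 f/f, a log2 ratio of 0.80. Plcg2, the phospholipase itself, read 1389 in Smad4 -/- and 2716 in Smad4 f/f, a log2 ratio of -0.97. The adaptor between them, Blnk, differed by 0.10 on the same scale.

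Plasma cell and immunoglobulin secretion genes had 1 of 16 measured genes at least 2-fold higher and 0 at least 2-fold lower, with 11 above 0 and a median of 0.26. The one was Tent5c, a poly(A) polymerase that stabilises immunoglobulin mRNA in plasma cells and is also expressed in red cell precursors. It read 51224 in Smad4 -/- and 17577 in Smad4 f/f, 2.91-fold higher, and both its probe sets passed 2-fold. Xbp1, the secretory factor of plasma cells, read 2450 in Smad4 -/- and 1990.3 in Smad4 f/f. Mzb1, a chaperone of IgM assembly, read 1950.1 in Smad4 -/- and 1677 in Smad4 f/f, so Xbp1 and Mzb1 had log2 ratios of 0.30 and 0.22. Irf4, a factor needed for plasma cell formation, read 71.5 in Smad4 -/- and 245 in Smad4 f/f, a log2 ratio of -0.76 with Smad4 -/- at the floor. Prdm1, which encodes the factor Blimp1, was below the floor on both arrays, with 118 in Smad4 -/- and 113 in Smad4 f/f. Others of the list lay on the same side as Jchain without passing 2-fold by their strongest probe set. Ell2 had a log2 ratio of 0.90, Creld2 0.63, Fkbp11 0.62, Txndc5 0.60, Herpud1 0.59 and Sdc1 0.58. Of these, Fkbp11 and Sdc1 lay below the floor in Smad4 f/f. The other measured probe set of Txndc5 gave 1.12, past 2-fold, that of Herpud1 -0.07 and that of Sdc1 -0.38. The 5 genes of the list below 0 by their strongest probe set were Irf4, Slamf7 at -0.72, Tnfrsf17 at -0.60, Sec11c at -0.26 and Edem1 at -0.24. Tnfrsf17 lay below the floor in Smad4 -/-.

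The heavy chains that the joining chain links were measured too. Probe sets for immunoglobulin genes can detect related genes of the family, so their gene names are uncertain, and 13 such probe sets with several symbols were left out. Igha, the IgA heavy chain, read 755 in Smad4 -/- and 579 in Smad4 f/f by its strongest probe set, and its 3 measured probe sets gave log2 ratios of -0.13 to 0.38. Ighm, the IgM heavy chain, read 1626 in Smad4 -/- and 1278 in Smad4 f/f by its strongest probe set, a log2 ratio of 0.35. Of the 7 measured Ighm probe sets, 4 were above 0 and 3 below, from -0.60 to 1.06. Ighv14-2, a heavy chain variable segment, read 1061 in Smad4 -/- and 795 in Smad4 f/f. Over the 18 measured immunoglobulin probe sets, 10 were above 0 and 8 below, 1 was at least 2-fold higher, 0 were at least 2-fold lower, and the median was 0.08. By gene, 0 of 8 passed 2-fold in either direction, 5 were above 0 and 3 below, and the median was 0.33. The 3 below were Ighg3, Igk and Iglv1, with log2 ratios of -0.66, -0.34 and -0.41. The Iglv1 probe set used lay below the floor in Smad4 -/-. A stronger Iglv1 probe set, passed over because it ends in _x_at, read 1098 in Smad4 -/- and 1073 in Smad4 f/f, a log2 ratio of 0.03.

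MHC class II genes, which B cells share with other antigen-presenting cells, were close on the arrays. Of 9 measured genes, 8 were above 0 and 1 below, 0 passed 2-fold, and the median was 0.19. H2-Eb1 read 1820 in Smad4 -/- and 1573 in Smad4 f/f. Cd74, the invariant chain that guards the class II groove, read 1607 in Smad4 -/- and 1409 in Smad4 f/f. Plasmacytoid dendritic cells express some B lineage genes as well. Of their 7 measured markers, 3 were above 0 and 4 below, with a median of -0.17. Siglech, their surface lectin, read 111 in Smad4 -/- and 293 in Smad4 f/f, at least 2.02-fold lower in Smad4 -/-.

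**Figure D3:**
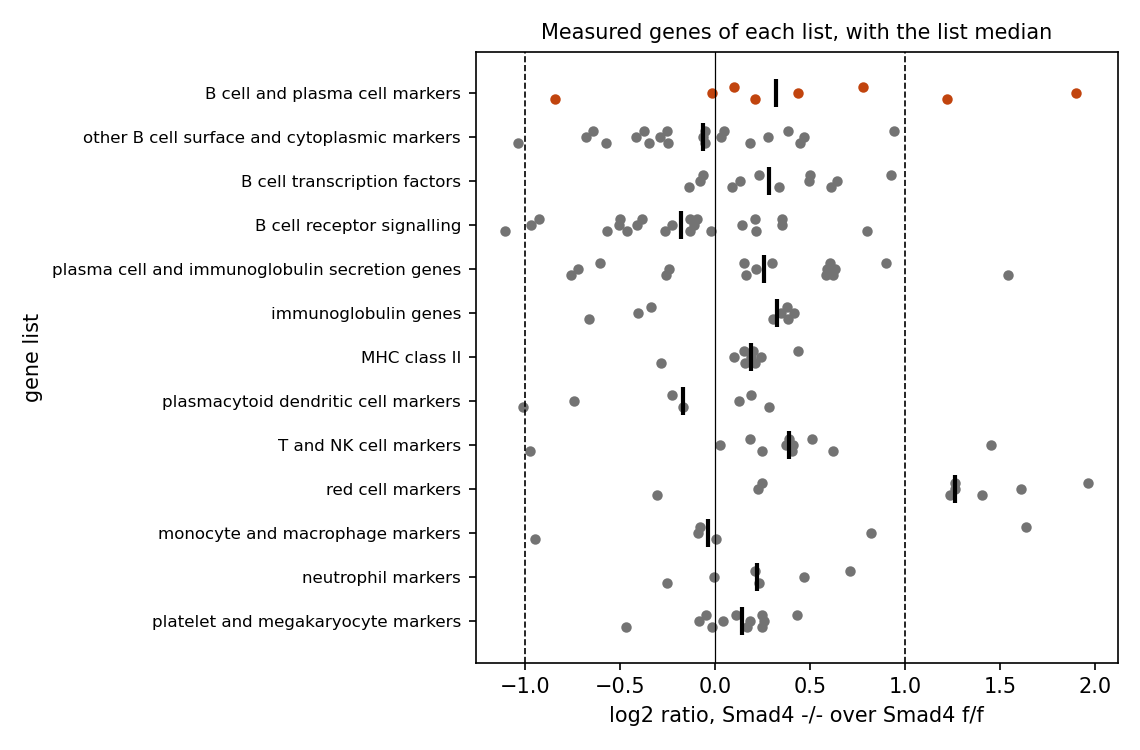
Log2 ratio of Smad4 -/- over Smad4 f/f for every measured gene of each list, with the list median as a black bar and 2-fold as dashed lines. Each gene is 1 point, from its strongest probe set, those ending _x_at only where there was no other. The markers in red spread from -0.84 to 1.90 around a median of 0.32, the immunoglobulin and class II genes cluster within 2-fold, and red cell markers have a median of 1.26.

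Markers of other blood cells stand beside these values. Of 9 measured red cell markers, 6 passed 2-fold on the higher side in Smad4 -/- and 0 on the lower. Slc25a37, the mitochondrial iron importer, had a ratio of 3.90-fold. The haem enzymes Alas2, which starts the pathway, and Fech, which inserts the iron, were 2.40-fold and 3.06-fold higher. Bpgm, whose product lowers the oxygen affinity of haemoglobin, was 2.65-fold higher. Sptb and Ank1 were short of 2-fold, with log2 ratios of 0.24 and 0.23, and Klf1 was at -0.31. Hba-a1 was below the floor on both arrays, with 28.7 in Smad4 -/- and 102 in Smad4 f/f. The summed signal of the 11 annotated red cell markers was 31583 in Smad4 -/- and 12431 in Smad4 f/f.

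Of 11 measured T and NK cell markers, 10 were above 0, with a median of 0.39, and Cd28, a costimulatory receptor, was 2.74-fold higher. The list summed to 18659 in Smad4 -/- and 9164 in Smad4 f/f, but without Cd28 to 5833 in Smad4 -/- and 4479 in Smad4 f/f, a ratio of 1.30. Of the genes that define T cells, Cd3e, Cd3g, Cd4 and Thy1 were below the floor on both arrays. Cd3d, with a log2 ratio of -0.98, was the 1 measured gene of the list below 0. Zap70, Cd2 and Cd27 were measured on both arrays, with log2 ratios of 0.51, 0.39 and 0.41 by their strongest probe sets.

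Monocyte and macrophage markers had a median of -0.04 over 6 measured genes. Their sum of 132718 in Smad4 -/- and 140776 in Smad4 f/f is almost all Lyz2, a lysozyme gene, which makes up 98.9% of it in Smad4 -/- and 99.3% in Smad4 f/f. Without Lyz2 the sums were 1458 in Smad4 -/- and 1053 in Smad4 f/f, a ratio of 1.38. Among them Csf1r, the receptor of colony-stimulating factor 1, was 3.11-fold higher by the probe set of highest signal, while the ratios of all 3 measured spanned -0.48 to 1.64.

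Neutrophil markers had a median of 0.22 over 6 measured genes and summed to 7955 in Smad4 -/- and 6483 in Smad4 f/f. S100a8 and S100a9, which encode the subunits of calprotectin, had log2 ratios of 0.23 and 0.47. Platelet markers summed to 1172610 in Smad4 -/- and 1093410 in Smad4 f/f, and Clec1b, the podoplanin receptor, had a log2 ratio of -0.08. No annotated gene of these lists had a log2 signal of exactly 0 on either array, which says nothing about whether it was detected. The part of other cells, or of the number of B cells left in the washed platelets, in the marker ratios was not tested.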

How the data were processed

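Washed platelet RNA was turned into biotin-labelled cRNA by 3' IVT amplification and put on Affymetrix mouse arrays, per the labels. The deposited values are log2 signals. Per the submitters' processing notes the tool was MAS5 (version not given in the sources used here). Scale was read from the deposited log2 values: trimmed by 2% at either end, the linear signals average 500.01 on each array. Detection calls were not used, and direction needs no settling on 1-colour arrays.

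The array has 45101 probe sets with 64 controls. The annotation used, which can be old, gives 1 gene symbol to 34945 of the remaining 45037, several to 932 and none to 9160. Entrez IDs of 34741 matched a RefSeq table of GRCm38.p6, and 0 symbols changed. The floor is the higher of the arrays' 60th percentiles over probe sets that are not controls. Ratios are Smad4 -/- over Smad4 f/f. A gene in a list took its probe set with the highest mean, those ending _x_at only where there was no other.

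No test was run, and 2-fold is a rule of size. All 9 markers and Smad4 were named; in each other list up to 4 genes past 2-fold with the largest ratios were named, or the 2 of highest signal where none passed. Igha, Ebf1, Btk, Plcg2, Xbp1, Mzb1, Irf4, Prdm1, Ell2, Creld2, Fkbp11, Txndc5, Sdc1, Cd24a, Lyz2, Cd3d, Cd3e, Cd3g, Cd4, Thy1 and the precursor genes of the closing section were named after their values were seen, and the signal ranges were chosen then too. Slamf7, Tnfrsf17, Zap70, Cd2, Cd27, Sptb, Ank1, Klf1, Hba-a1, Ighg3, Igk, Iglv1 and Spi1 were also named after their values were seen. So were Nfatc1, Pik3cd, Foxo1, Tcf3, Herpud1, Sec11c and Edem1. Members and lists were chosen with earlier results of these data known. Calculations used Python 3.11.15, pandas 2.3.3 and statsmodels 0.14.6, and were tested on simulated data.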

Additional observations from a re-analysis of the deposited data

How the results depend on the processing

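No paired analysis was possible because each genotype has 1 array. The count of marker probe sets at least 2-fold higher was 2 as reported, 1 with the floor at the 75th percentile, 4 with no floor, where both Pax5 probe sets join, 1 at a 3-fold threshold and 3 at a 1.5-fold threshold, where Cd79a joins. The count at least 2-fold lower was 0 as reported, 1 with no floor, the weaker Cd22 probe set, and 1 at a 1.5-fold threshold, which is Blk. With no floor, 17.3% of all probe sets were at least 2-fold higher and 19.5% at least 2-fold lower. Median centring, quantile normalisation, the loess correction and the floor at the 50th percentile left both counts as reported. Over all 8 alternatives run for each, the log2 ratio ranged from 1.06 to 2.00 for Jchain, 0.42 to 1.28 for Cr2, 0.27 to 0.83 for Cd79a and -0.84 to -0.81 for Blk. The lowest values for Jchain, Cr2 and Cd79a came with the floor at the 75th percentile, which lies above their Smad4 f/f signals. Ms4a1 lay between -0.05 and 0.05 and was above 0 only as the mean of its probe sets. Pax5 gave a value under 3 alternatives, from 0.06 to 2.16. No marker probe set ends in _s_at or _x_at, so leaving these out changed nothing. The number of arrays limits the precision, and signals near the floor are the least certain.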

Other observations

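Genes of B cell precursors were mostly below the floor on both arrays. These are the surrogate light chain genes Igll1 and Vpreb1 and the recombinase genes Rag1 and Rag2, which act while immunoglobulin genes are being rearranged. Igll1 read 125 in Smad4 -/- and 31.3 in Smad4 f/f, and Vpreb1 read 21.4 in Smad4 -/- and 10.7 in Smad4 f/f. Rag1 read 18.6 in Smad4 -/- and 22.5 in Smad4 f/f, and Rag2 read 14.2 in Smad4 -/- and 10.9 in Smad4 f/f. Dntt, another precursor gene, reached the floor in Smad4 f/f alone. Vpreb3, also in the list of other B cell markers, was above the floor on both arrays. It read 158 in Smad4 -/- and 252 in Smad4 f/f, a log2 ratio of -0.68.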
